A study of Sus scrofa with 4 samples.

Results

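*LMO1*, *ASCL2*, *SOX9* and *SOX10* encode 4 regulators of transcription, each read by 1 probe and 1 spot on a pig array of 43603 probes. They were found by the RefSeq transcript in the array design (NM_001113055 for *LMO1*, NM_001122991 for *ASCL2*, NM_213843 for *SOX9* and NM_001099933 for *SOX10*) and are 4 of 2389 genes that could be named in this way. The scanner software marked all 4 probes as well above background on every array. *LMO1* was chosen by its difference in signal between the groups compared here, and the other genes, with their signals known, as regulators tied to intestinal crypts or glia. The values of all 4 are therefore given as a description with no test.

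RNA came from slices of ileum, where the small intestine ends, taken at 16 days of age from piglets that suckled lactating sows. The sows were Yorkshire × Landrace and had been inseminated from Duroc boars. The low-gain group was 2 arrays of RNA pooled from 2 piglets with low weight gain, and the high-gain group was 2 arrays of RNA pooled from 3 piglets with high weight gain, with the arrays of each group lettered a and b. The sample labels speak of weight gain whereas the design text speaks of weight at birth, and the labels were followed. Whether a and b came from different pools or from the same pool hybridised again is not stated in the labels, so every error below measures the spread between arrays, which may be technical, and not the spread between piglets.

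LMO1 is a protein made of LIM domains with no DNA-binding domain of its own. It joins the LIM-domain-binding protein LDB1 in complexes with GATA and basic helix-loop-helix factors, and it is known for its expression in the nervous system and as an oncogene in T cell leukaemia and neuroblastoma. ASCL2 is a basic helix-loop-helix factor and Wnt target that sets the stem cell state at the base of the intestinal crypt. SOX9, a factor with a high-mobility-group box, is another Wnt target of crypt cells and is required for Paneth cells. Its relative SOX10 marks glia and other cells derived from the neural crest, and in the gut it belongs to the glia of the enteric nervous system.

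The labelled tissue was checked against *FABP6*, the bile acid binding protein of ileal enterocytes, a marker added after the data were seen. Its normalised signal, the log2 processed signal minus the array's 75th percentile, was 8.65 and 8.72 on the low-gain arrays and 8.55 and 8.76 on the high-gain arrays, well above background on all 4 and overlapping between the groups. Per array, 32835 to 33972 of the 43803 spots that were not controls stood well above background, and no spot was saturated. Probes spotted at least 5 times had a median SD of 0.14 (log2) among their repeat spots on low-gain array a and of 0.084 to 0.091 on the other 3 arrays. The 4 genes had no repeat spots.

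*LMO1* gave the signals that set the groups apart most clearly. Its processed signal was 344.3 on low-gain array a and 382.1 on low-gain array b. In high gain it was 49.0 on array a and 48.5 on array b. The scanner software put the error of these 4 spots at 10.3% of the signal or less. Both low-gain spots were thus several times as bright as both high-gain spots, and the groups did not overlap. In sliced tissue, more RNA per cell cannot be told apart from more cells that hold it. The unprocessed median pixel signal showed the same split, with 381 and 437 in low gain against 72 and 74.5 in high gain, over local backgrounds of 16 to 18.

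On the normalised log2 scale *LMO1* was at -0.25 and -0.28 on low-gain arrays a and b, and at -3.30 and -3.28 on high-gain arrays a and b. The difference of means was 3.02 ± 0.10 (log2, SE of the limma fit, n = 2 arrays per group), or 8.11-fold higher in low gain. Each of the 4 pairings of a low-gain with a high-gain array gave between 7.98-fold and 8.25-fold. Arrays of 1 group lay 0.028 (low gain) and 0.020 (high gain) apart, less than the scatter of repeat spots within a single array. The SE of 0.10 therefore comes mostly from the variance that limma borrows from all probes, since the SD of *LMO1* between arrays, pooled over the groups, was only 0.017.

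Set against all 33265 tested probes, 46, *LMO1* among them, differed by at least 3.02 in either direction, which is 0.14%. Among 2158 named genes with 1 probe each it had the largest difference in either direction. Of the 3740 probes whose mean signal lay within 0.5 log2 units of its own, *LMO1* alone reached 3.02 towards low gain. Differences towards high gain were not counted there. These ranks describe the value on which it was selected. The gene was also measured nowhere else on the array under its RefSeq transcripts, so that no second probe bears on the size of the difference.

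**Figure D1:**
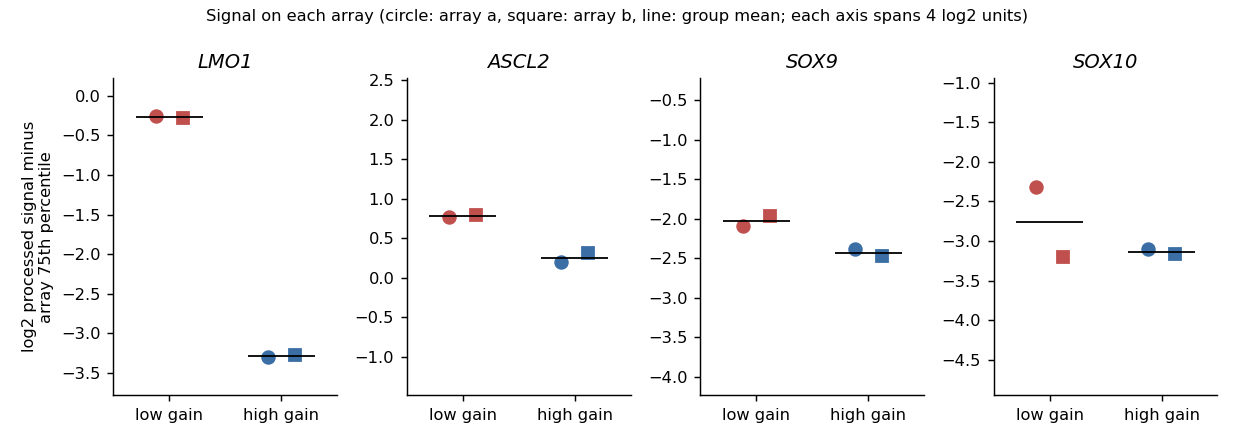
Log2 processed signal minus the array's 75th percentile (vertical axis) for *LMO1*, *ASCL2*, *SOX9* and *SOX10* on the low-gain and high-gain arrays, with circles for array a, squares for array b and lines for group means. *LMO1* lies near -0.3 on both low-gain arrays and near -3.3 on both high-gain arrays, whereas the 2 low-gain values of *SOX10* lie 0.88 apart.

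*ASCL2*, the crypt stem cell factor, differed far less. Its processed signal was 702 and 807 on low-gain arrays a and b, against 553 and 587 on high-gain arrays a and b. The normalised log2 signal was 0.77 and 0.80 in low gain and 0.20 and 0.32 in high gain. Both low-gain arrays lay above both high-gain arrays, and the nearest values of the groups were 0.46 apart. The difference was 0.53 ± 0.11 (log2, SE, n = 2 arrays per group), or 1.44-fold higher in low gain. A difference of this size was common, as 14.5% of all tested probes differed by at least as much in either direction. Among 2857 probes of like signal, 3.89% were as far or farther towards low gain.

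*SOX9*, the other crypt factor, had processed signals of 96.6 and 119 in low gain and of 92.7 and 84.5 in high gain. After scaling, its log2 signal was -2.09 and -1.97 in low gain (a and b) and -2.38 and -2.48 in high gain. The groups did not overlap, though the linear signals of low-gain array a and high-gain array a were nearly equal and were parted by the scaling. The 75th percentile of the processed signal was 411 on the first of these arrays and 483 on the second. The difference was 0.40 ± 0.11 (log2, SE, n = 2 arrays per group), 1.32-fold higher in low gain, and 23.8% of all tested probes differed by at least as much.

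*SOX10*, the glial factor, did not separate the groups. Its processed signal was 82.6 on low-gain array a, 50.6 on low-gain array b, and 56.3 and 52.4 on high-gain arrays a and b. The log2 signal was -2.31 on low-gain array a and -3.20 on low-gain array b, against -3.10 and -3.17 on high-gain arrays a and b. A single array thus stood above the rest, and low-gain array b was the lowest of the 4. Low-gain array a was also the highest of the 4 for 34.5% of 4061 probes of like signal. The difference of 0.38 ± 0.33 (log2, SE, n = 2 arrays per group) was close to its error. Without low-gain array a it was -0.064, and without low-gain array b it was 0.82. Gaps between the low-gain arrays as wide as the 0.88 of *SOX10* were found for 6.38% of 4061 probes of like signal, and gaps that wide between the high-gain arrays for 3.96%.

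Groups of *LMO1*, *ASCL2* and *SOX9* did not overlap, with the low-gain arrays on top, as was so for 32.6% of the 2158 named genes. Since the groups' signals chose the genes, nothing is read from that count. *ASCL2* and *SOX9* had the most alike patterns of the 4, with a Euclidean distance of 0.21 (log2) between their centred values over the 4 arrays. *SOX10* lay 0.67 from *ASCL2* and 0.71 from *SOX9*, and *LMO1* lay 2.49 to 2.71 from the others.

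**Figure D2:**
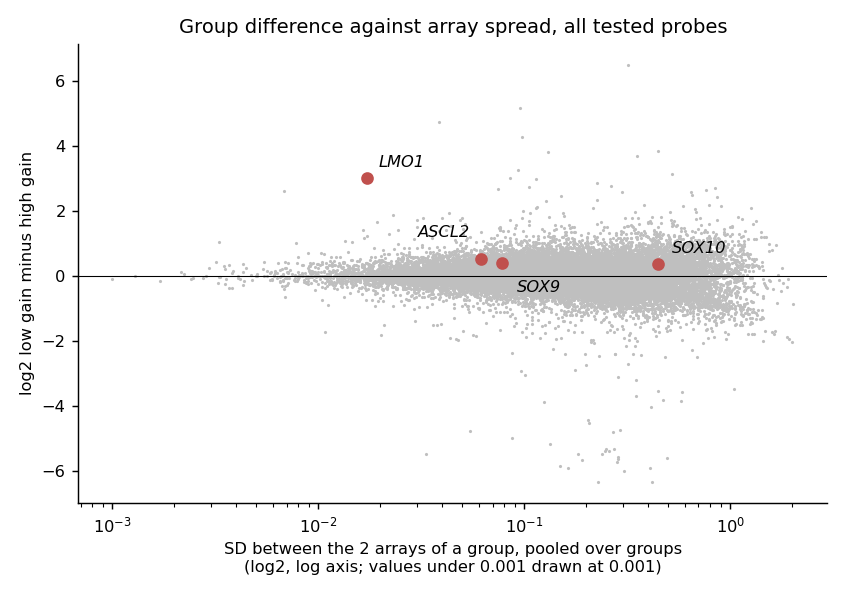
Log2 difference, low gain minus high gain (vertical axis), against the SD between the 2 arrays of a group pooled over groups (horizontal log axis), for 33265 tested probes in grey and the 4 genes in red. *LMO1* combines a difference of 3.02 with an SD of 0.017, while *ASCL2*, *SOX9* and *SOX10* lie within the cloud of all probes.

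Genes with which LMO1 works, or which share its LIM domains, were measured as a list of 11 genes. By limma's test with Benjamini-Hochberg adjustment over all probes, which 0.24% of the 33265 probes passed, 0 of 11 passed in either direction, against 0.417% of named genes, and 1 had an unadjusted p under 0.05, against 21.6% of named genes. Of the 11, 8 had a higher and 3 a lower mean in low gain, while 53.4% of named genes had a higher one. The list's median difference was 0.25 (log2), while that of all named genes was 0.025. The list's median was 0.12 without low-gain array a or without high-gain array a, 0.11 with a gene's probes averaged and 0.091 with normexp on the median signal. It stayed nearer to 0.25 in other settings, at 0.24 without low-gain array b and 0.29 without high-gain array b. With quantile normalisation it was 0.22, and in the deposited log2 values 0.24. With a prior variance that follows signal intensity, 1 of the 11 passed, as did 7.88% of named genes.

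That gene was *LMO3*, a paralog of *LMO1*, and it was lower in low gain. Its log2 signal was -0.79 and -0.61 on low-gain arrays a and b, against -0.10 and 0.07 on high-gain arrays a and b, without overlap. The difference was -0.69 ± 0.13 (limma adjusted p = 0.170, and 0.0367 with the intensity trend). *LMO4*, a LIM-only gene expressed in many epithelia, was at 4.70 and 4.75 in low gain and at 4.35 and 4.57 in high gain. It differed by 0.27 ± 0.12 (adjusted p = 0.346), and 3 further probes lay between -0.021 and 0.28. *LDB1* differed by 0.25 ± 0.14 (adjusted p = 0.421), though a second probe gave -0.019. The fitted differences of both paralogs and of *LDB1* thus had no common sign, and each was under 1 log2 unit.

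The remaining genes of the list had small or uneven differences. *LHX2*, a LIM-homeobox gene, was at -3.41 and -5.19 in low gain and at -5.57 and -4.21 in high gain, so that its difference of 0.59 ± 0.80 was smaller than its error. *KLF1*, a gene of the red cell lineage, differed by -0.33 ± 0.37. *GATA2* differed by 0.27 ± 0.20 and *GATA3* by -0.25 ± 0.12, both without passing (adjusted p = 0.508 and 0.351). *FHL1* (0.31 ± 0.13), *PDLIM3* (0.27 ± 0.11), *LMCD1* (0.21 ± 0.13) and *FHL3* (0.10 ± 0.10) were all higher in low gain without overlap. Such separation was found for 32.6% of named genes. Other tested probes of *FHL1* ran from -0.48 to 0.33, those of *PDLIM3* gave 0.37 and 0.95, and that of *FHL3* gave 0.12.

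The crypt itself was thinly covered. Of 25 listed crypt base and Wnt target genes besides *ASCL2* and *SOX9*, 3 could be measured, and 0 of the 3 passed in either direction (limma; 1 with an unadjusted p under 0.05 and 0 with the intensity trend, against 21.6% and 7.88% of named genes). Their median was 0.29, but 0.13 without high-gain array a and 0.45 without high-gain array b. *LEF1*, a transcription factor that carries Wnt signals, had log2 signals of -0.41 and -0.57 in low gain and of -1.05 and -1.01 in high gain. It differed by 0.54 ± 0.11 (adjusted p = 0.185), close to the value of *ASCL2*, and its 2 other probes gave 0.67 and 0.99. *MYC*, a driver of crypt proliferation, differed by 0.29 ± 0.15 (adjusted p = 0.376), and 2 more probes gave 0.27 and 0.31. *HOPX*, linked to slowly dividing crypt cells, differed by -0.14 ± 0.11 (adjusted p = 0.524), and its 4 other probes ran from -0.31 to 0.05.

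Ligands, inhibitors and core parts of the Wnt pathway were listed together with *BMP2*, *BMP4* and *NOG* of the bone morphogenetic protein pathway. By limma, 0 of the 9 measured genes of this list passed. An unadjusted p under 0.05 was reached by 2, against 21.6% of named genes, and 0 passed with the intensity trend, against 7.88%. The median difference was 0.24, and 0.13 with normexp on the median signal. *WNT2B*, a ligand gene of the crypt stroma, differed by 0.40 ± 0.10 (adjusted p = 0.202). *BMP2*, a ligand gene of the opposing bone morphogenetic protein pathway, differed by 0.29 ± 0.10 (adjusted p = 0.257), and *DKK1*, which encodes a secreted Wnt inhibitor, by 0.26 ± 0.11 (adjusted p = 0.316). *BMP4* differed by -0.21 ± 0.14, with a second probe at 0.16, and *CTNNB1*, the gene of beta-catenin, by 0.13 ± 0.11, with 4 more probes from -0.075 to 0.30.

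Other transcription factors of the intestinal epithelium leaned the same way as *ASCL2* and *SOX9*. The mean was higher in low gain for all 8 measured genes and their median was 0.44, whereas 53.4% of all named genes had a higher mean in low gain. Of the 8, 0 passed (limma; 5 had an unadjusted p under 0.05, against 21.6% of named genes), and 2 passed with the intensity trend, against 7.88%. Without low-gain array a 7 of the 8 had a higher mean, as also with normexp on the median signal, where the median was 0.15. *KLF4*, a factor of differentiated epithelium, differed by 0.55 ± 0.10 (adjusted p = 0.173), and its second probe gave 0.58. *GATA6*, which encodes a GATA factor of gut epithelium, differed by 0.47 ± 0.13 (adjusted p = 0.211). *HNF4A*, a regulator of enterocyte genes, differed by 0.04 ± 0.11, but its 2 other probes gave -0.072 and 0.59.

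Epithelial genes at large had differences of like size. Of 12 measured epithelial genes, 11 had a higher mean in low gain (53.4% of named genes) and the median difference was 0.44. Of the 12, 0 passed (limma; 7 had an unadjusted p under 0.05, against 21.6% of named genes), and 5 passed with the intensity trend, against 7.88%. The list's median log2 signal was 5.51 and 5.55 in low gain and 5.13 and 5.32 in high gain. *CDH1*, the gene of E-cadherin, differed by 0.58 ± 0.10 (adjusted p = 0.162, other probe 0.27), *ANPEP*, a brush-border peptidase gene, by 0.68 ± 0.10 (adjusted p = 0.141, other probes 0.14 and 0.55) and *CLDN3*, a tight junction gene, by 0.55 ± 0.10 (adjusted p = 0.167). *EPCAM* differed by 0.16 ± 0.13, and 15 more probes ran from 0.044 to 0.54. The part of epithelial content in the values of *ASCL2* and *SOX9* was not tested.

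Smooth muscle genes had a median difference of the same size, 0.45 over 7 measured genes. Of these, 6 had a higher mean in low gain (53.4% of named genes) and 0 passed. By limma, 6 had an unadjusted p under 0.05 (21.6% of named genes) and 4 passed with the intensity trend (7.88%). The list's median log2 signal was 5.02 and 4.97 in low gain and 4.53 and 4.55 in high gain. *MYLK* differed by 0.56 ± 0.11 (adjusted p = 0.170) and *CNN1* by 0.48 ± 0.11 (adjusted p = 0.192, other probe 0.45). *DES* differed by 0.51 ± 0.10 (adjusted p = 0.176), although 2 further probes lay at -0.34 and -0.023. *ACTA2* differed by -0.25 ± 0.15, and 3 more probes ran from -0.61 to 0.23. Differences near those of *ASCL2* and *SOX9* were therefore seen in epithelial and in muscle genes alike.

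**Figure D3:**
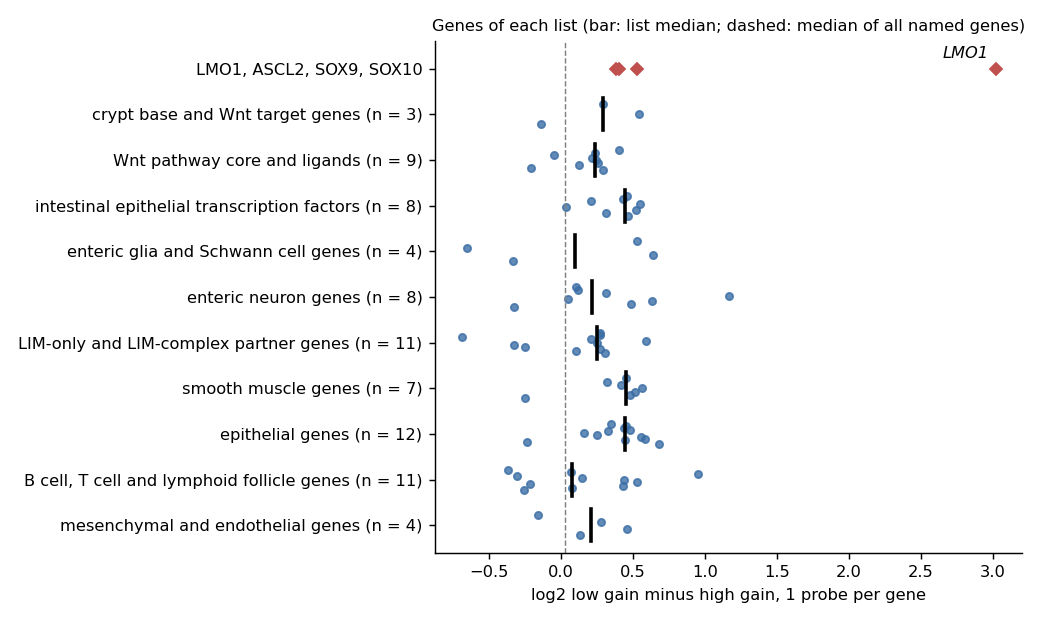
Log2 difference, low gain minus high gain (horizontal axis), for the genes of each list with 1 probe per gene, with list medians as bars, the median of all named genes (0.025) as a dashed line, and *LMO1*, *ASCL2*, *SOX9* and *SOX10* as red diamonds. The differences of *ASCL2*, *SOX9* and *SOX10* fall among those of epithelial and smooth muscle genes, whereas *LMO1* lies beyond every listed gene.

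Genes of enteric glia went in both directions. Of 28 listed, 4 were measured, 2 with a higher and 2 with a lower mean in low gain, and 0 passed (limma; 1 with an unadjusted p under 0.05 and 1, *SPARC*, with the intensity trend, against 21.6% and 7.88% of named genes). Their median was 0.09, and it was 0.000585 without high-gain array a, 0.16 without high-gain array b and -0.073 with a gene's probes averaged.

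*MBP*, a myelin gene of Schwann cells and oligodendrocytes, was set apart by low-gain array a, as *SOX10* was, at -0.71 against -1.86 on low-gain array b and -1.84 and -2.0 on the high-gain arrays. Its difference was 0.64 ± 0.42 (adjusted p = 0.469), while its 7 other probes ran from -0.12 to 0.35. *FABP7*, a glial fatty acid binding protein gene, differed by -0.34 ± 0.15 (adjusted p = 0.320). *SPARC*, a matrix glycoprotein gene that fibroblasts express as well, differed by 0.52 ± 0.13 (adjusted p = 0.197), and of its 6 other probes 4 lay between 0.40 and 0.55 and 2 at -0.25 and -0.16.

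Genes of enteric neurons, some of them shared with enteroendocrine cells, had a median difference of 0.22 over 8 measured genes. Of these, 7 had a higher mean in low gain (53.4% of named genes), but 5 without low-gain array b, where the median was 0.15. By limma, 0 passed, while 3 had an unadjusted p under 0.05 (21.6% of named genes) and 2 passed with the intensity trend (7.88%). *GAL*, the gene of the neuropeptide galanin, had the largest difference of all listed genes. Its log2 signal was -0.38 and -0.48 in low gain and -1.65 and -1.54 in high gain, a difference of 1.17 ± 0.11 (adjusted p = 0.0835, and 0.00767 with the intensity trend). *CHGB*, a granin gene, differed by 0.63 ± 0.11 (adjusted p = 0.163), with 14 further probes from 0.38 to 0.90, and *CHGA* by 0.49 ± 0.15 (adjusted p = 0.235). The general neuron genes *UCHL1* (0.11 ± 0.17, second probe -0.0068) and *STMN2* (0.12 ± 0.11) had smaller fitted differences.

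LMO1 is also an oncogene of T cells, and lymphoid genes can be set beside it. Of 11 measured B cell, T cell and follicle genes, 7 had a higher mean in low gain (53.4% of named genes), the median was 0.07, and 0 passed. By limma, 4 had an unadjusted p under 0.05 (21.6% of named genes) and 1 passed with the intensity trend (7.88%). Without low-gain array a, 5 had a higher mean and the median was -0.019. *CD8A*, the coreceptor gene of cytotoxic T cells, differed by 0.95 ± 0.11 (adjusted p = 0.118), though a second probe gave 0.03. *CD3E* differed by 0.53 ± 0.17 (adjusted p = 0.244) and *CD3G* by 0.44 ± 0.14 (adjusted p = 0.235, second probe 0.22), while the B cell gene *CD79A* differed by -0.31 ± 0.13. Mesenchymal and endothelial genes had a median of 0.21 over 4 measured genes, which was 0.0081 with a gene's probes averaged, and 0 passed. By limma, 1 had an unadjusted p under 0.05 (21.6% of named genes) and 0 passed with the intensity trend (7.88%). They were *DCN* (0.46 ± 0.16), *ENG* (0.28 ± 0.14), *CDH5* (0.13 ± 0.13, second probe -0.70) and *PECAM1* (-0.16 ± 0.12, 2 other probes at -0.34 and -0.28). The largest difference of any listed gene, 1.17 for *GAL*, was far below the 3.02 of *LMO1*. The part of cell composition in that value was not tested.

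For each of the 4 genes, the 3 named genes with the most alike pattern were taken, by the Euclidean distance between centred log2 values over the 4 arrays. Those nearest to *LMO1* were still distant. *BPI*, the gene of a bactericidal protein that binds endotoxin, lay 0.61 away, with log2 signals of 0.39 and 0.45 in low gain and of -1.89 and -2.18 in high gain. *CCR3*, an eosinophil chemokine receptor gene, was next by measured values, but it was not well above background on either high-gain array. Its distance is therefore not given. With its high-gain mean set to a floor of -6.35, its low-gain mean of -4.31 was 4.11-fold higher. The floor need not be the detection limit of this spot, so that value is not a strict bound. *SFTPD*, the gene of surfactant protein D, lay 1.15 away, at 0.53 and 0.51 in low gain and -1.37 and -1.33 in high gain.

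Many genes lay close to the other 3. By measured values, dim ones included, there were within 0.5 log2 units of distance 831 named genes for *ASCL2*, 1128 for *SOX9* and 163 for *SOX10*, and 0 for *LMO1*. A gene with nearly equal values on all arrays lies close to any gene whose own values differ little. These counts therefore reflect the size of each gene's differences between arrays as well as their pattern. The nearest to *ASCL2* were *KLF4* at 0.024, *SL44-1* at 0.035 and *LGALS1*, a galectin gene, at 0.038. The nearest to *SOX9* were *NR1I2*, the gene of the pregnane X receptor, at 0.049, *CLDN14* at 0.060 and *BMPR1B*, a bone morphogenetic protein receptor gene, at 0.061.

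The nearest to *SOX10* were *SPATA16*, a gene named for spermatogenesis, at 0.050, *SCGB1D1*, a secretoglobin gene, at 0.067, and *HCRTR2*, the gene of an orexin receptor, at 0.10. In each of these, as in *SOX10*, low-gain array a alone stood above the other 3 arrays. *SPATA16* was at -4.48 on that array against -5.33 to -5.25 on the others. Without low-gain array a their differences were -0.073 (*SPATA16*), -0.12 (*SCGB1D1*) and -0.079 (*HCRTR2*).

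**Figure D4:**
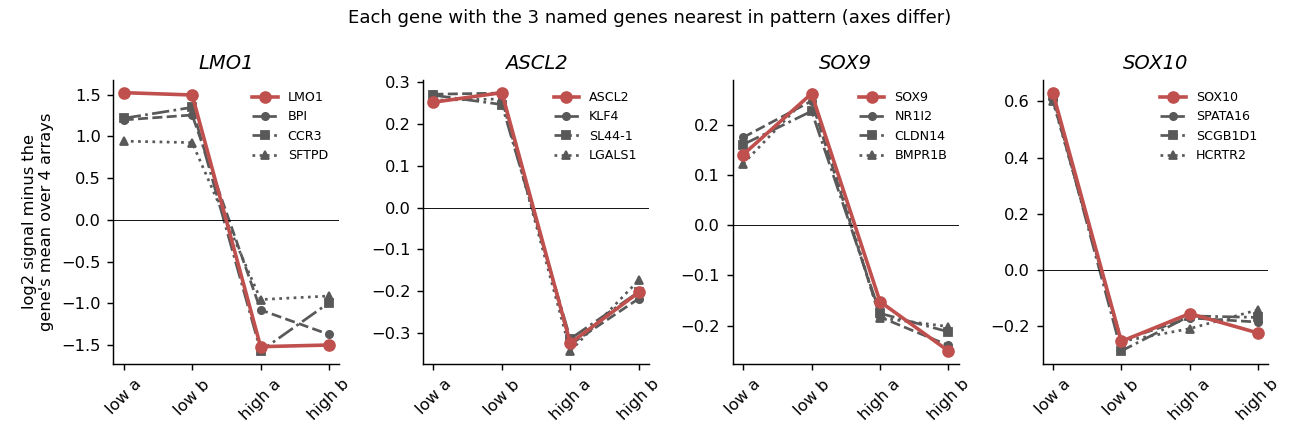
Log2 signal minus the gene's own mean over the 4 arrays (vertical axis, range differing between panels) on each array for *LMO1*, *ASCL2*, *SOX9* and *SOX10* in red and for the 3 named genes nearest to each in grey. *ASCL2*, *SOX9* and *SOX10* are tracked closely, *SOX10* through a raised low-gain array a, and no named gene well above background on all 4 arrays came nearer to *LMO1* than 0.61. *CCR3* is drawn at measured values that were not well above background in high gain.

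The difference of *LMO1* kept its direction in every setting tried, but its size depended on the background treatment. It was 3.02 with quantile normalisation, 3.02 with median centring and 3.05 in the deposited log2 values. With normexp background correction of the median pixel signal it was 1.14. With bright local backgrounds replaced before that correction, a setting added after the data were seen, it was 2.12. Both settings add the same offset of 50 to every spot, which is close to the processed signal of *LMO1* in high gain. A ratio of the mean median pixel signals less local background, with no offset and no scaling between arrays, gave 7.07-fold. The ratio of mean processed signals, likewise unscaled, was 7.45-fold.

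**Figure D5:**
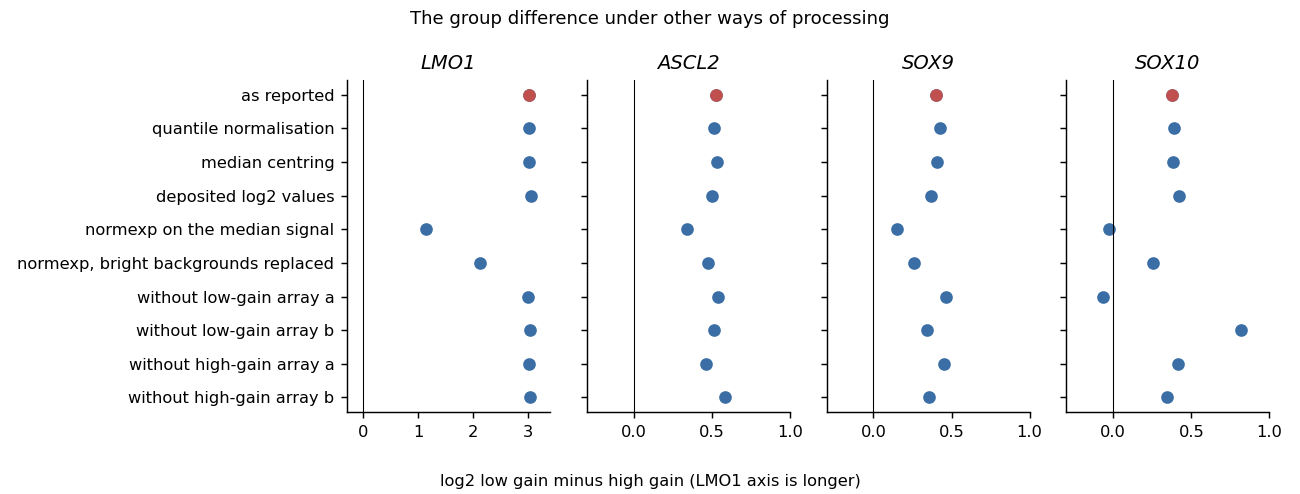
Log2 difference, low gain minus high gain (horizontal axis, longer for *LMO1*), for *LMO1*, *ASCL2*, *SOX9* and *SOX10* as reported (red) and under other scalings, values, background corrections and with 1 array left out (blue). *LMO1* falls to 1.14 and 2.12 with normexp, and *SOX10* falls below 0 without low-gain array a (-0.064) and with normexp on the median signal (-0.030).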

How the data were processed

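The authors' deposited scanner files hold a processed intensity, a median pixel intensity and a local background per spot, on a linear scale, made with Agilent Feature Extraction 10.7.3.1 for 1-colour arrays, per the file headers. A table of log2 values was deposited as well, and how the authors processed it is not given in the sources. It tracked the scanner's log2 processed signal of the same array (r 0.982 to 0.993 over non-control spots) and served as an alternative.

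From log2 processed signal, the 75th percentile of each array's spots other than controls was subtracted. Outlier spots were left out, as were 48 probes that lacked a value on an array. Probes well above background on both arrays of at least 1 group, 33265 in all, were fitted with limma 3.58.1 (lmFit and eBayes, R 4.3.3), tested on simulated data, with Benjamini-Hochberg adjustment over all of them and a threshold of 0.05. The number of arrays limits the precision, and a permutation test of 2 against 2 arrays cannot go below p = 0.333.

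Genes were named through RefSeq accessions in the array design and an NCBI gene table (5461 of 5779 probes with such an accession), and the brightest probe stood for a gene. The scanner files name no genome build and hold no probe sequences, so no coordinates are given, and the gene table (Sscrofa11.1) served for names and gene order only. The 4 genes and all lists were chosen with earlier results of these data known. Of each list, the rule named genes past the test or, with none, the 3 with the largest difference among those above background on all arrays. A few genes that the rule would name are not reported here. Others are named to complete a list or to show list members near 0 or of the opposite sign, and were picked after their values were seen. Median rather than mean signal entered normexp, as the files hold no mean signal.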

Additional observations from a re-analysis of the deposited data

How the results depend on the processing

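Of the settings tried, 80 probes passed the test as reported, and this count moved widely. It was 163 with median centring, 12 with no filter on dim probes and 1250 with the intensity trend. With normexp and bright backgrounds replaced (added after the data were seen) it was 1052. With normexp on the median signal it was 0, and there 0 probes had even an unadjusted limma p under 0.05, against 6117 as reported. The count was also 0 when signal on all 4 arrays was required, where 6071 probes had an unadjusted p under 0.05. With 1 array left out it ranged from 0 (either high-gain array) to 37 (low-gain array b) and was 36 without low-gain array a. The a minus b differences of the groups were nearly uncorrelated (r = -0.037 over 33265 probes). This value cannot settle whether arrays of 1 letter were handled together, which the labels do not state. With the letter as a replicate block 0 probes passed and the log2 differences were the same. The block and the left-out arrays also leave fewer residual degrees of freedom. The cause of the changes in these counts was not tested.

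*LMO1* was at 1.14 with normexp on the median signal, 2.12 with bright backgrounds replaced and 3.05 in the deposited values, and from 3.01 to 3.03 with 1 array left out. *ASCL2* was at 0.34 and *SOX9* at 0.15 with normexp on the median signal, and *SOX9* at 0.26 with bright backgrounds replaced. With 1 array left out *ASCL2* ran from 0.47 to 0.59, *SOX9* from 0.34 to 0.46 and *SOX10* from -0.064 to 0.82. *SOX10* turned to -0.030 with normexp on the median signal.

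Counts of listed genes past the test were 0 as reported. With the intensity trend they were 2 for epithelial transcription factors, 1 for glia, 2 for neurons, 1 for the LIM list, 4 for smooth muscle, 5 for epithelium and 1 for lymphoid genes. With bright backgrounds replaced they were 3, 0, 2, 1, 4, 4 and 1 in that order. With a gene's probes averaged, 1 neuron gene passed. The glial median turned to -0.33 with no filter and -0.073 with probes averaged. With 1 array left out the lymphoid median ran from -0.019 (without low-gain array a) to 0.19. Among single genes, with 1 array left out *LHX2* ran from -0.31 (without low-gain array a; -0.094 without high-gain array a) to 1.48, and *KLF1* from -0.81 to 0.15 (without high-gain array b). With normexp on the median signal *CLDN14*, *SPATA16* and *SCGB1D1* turned to -0.013, -0.014 and -0.0061. With 1 array left out the values of *SOX10*'s neighbours in pattern ran from -0.073 (*SPATA16*), -0.12 (*SCGB1D1*) and -0.079 (*HCRTR2*), each without low-gain array a, to 0.78 without low-gain array b.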

Other observations

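Genes that neighbour *ASCL2* in the RefSeq gene order of Sscrofa11.1 gave values of their own, looked up after the data were seen. *IGF2*, a growth factor gene 3 genes away on one side, was at 1.29 and 1.17 on low-gain arrays a and b and at 1.14 and 1.24 on high-gain arrays a and b, so that its groups overlapped (difference 0.04 ± 0.11). *CD81*, a tetraspanin gene 3 genes away on the other side, was at 3.49 and 3.58 in low gain and at 4.03 and 3.75 in high gain, a difference of -0.36 ± 0.14 (limma adjusted p = 0.298), opposite in sign to that of *ASCL2*. Of the 5 nearest protein-coding genes on each side of *LMO1*, and of *SOX10*, 0 could be named on the array. *KCNJ2*, a potassium channel gene next to *SOX9*, was at -4.41 on low-gain array a against -5.44 to -5.24 on the other 3 arrays (difference 0.41 ± 0.38). Low-gain array a was the highest for *SOX10* too, and for 34.5% of the 4061 probes with a signal like that of *SOX10*.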
